A study of Arabidopsis thaliana with 40 samples.

Results

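The transcripts described here are those of 10 cyclophilins of Arabidopsis thaliana, out of 27826 loci with a probe set on the arrays. They were taken as a list of loci, by a rule that uses no measured value. The list itself was chosen with earlier results of these data known. CYP20-3 (AT3G62030) is the cyclophilin of the chloroplast stroma. ROC1 (AT4G38740), ROC2 (AT3G56070), ROC3 (AT2G16600), ROC5 (AT4G34870) and ROC6 (AT2G21130) are cyclophilins of the cytosol, and CYP38 (AT3G01480), CYP20-2 (AT5G13120), CYP28 (AT5G35100) and CYP37 (AT3G15520) are cyclophilins of the thylakoid lumen. Each of the 10 loci had 1 probe set, and all 10 were tested, since no filter on low values was applied.

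Cyclophilins are peptidyl-prolyl cis-trans isomerases, which speed the folding of proteins at proline bonds, and many of them bind the immunosuppressant cyclosporin A. Plants hold a large family of them, spread over the cytosol, the nucleus, the secretory pathway and the chloroplast. In the stroma, CYP20-3 is reduced by thioredoxin, passes electrons to 2-Cys peroxiredoxin, and binds the jasmonate precursor OPDA and the serine acetyltransferase of the cysteine synthase complex. In the thylakoid lumen, CYP38 is needed for the assembly and repair of photosystem II.

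The samples were shoots of 4-week-old plants grown in soil with 8 h of light and 16 h of darkness. Wild type (WT) and 4 mutant lines named 2cysprx, cyp20-3, oastlB and serat2;1 were compared in 2 lights, which gave 10 groups of 4 arrays. Normal light (NL) had a photon flux of 80 µmol m-2 s-1, and plants in high light (HL) had spent 6 h at 800 µmol m-2 s-1. The lines are named for 2-Cys peroxiredoxin, CYP20-3, the plastid O-acetylserine(thiol)lyase OASB and the plastid serine acetyltransferase SERAT2;1, and no further detail on their alleles or on the WT accession was used here. The comparisons ask how each cyclophilin transcript responded to high light, and whether lesions in the module of CYP20-3, 2-Cys peroxiredoxin and cysteine synthase altered its level or its response. Values are log2 intensities that the authors normalised, and a difference of 1 is a 2-fold change. Differences are given ± standard error from 1 limma fit of all 40 arrays, and a gene was called when its Benjamini-Hochberg adjusted p over all 27826 probe sets lay under 0.05. The labels name the 4 arrays of a group biological replicates without saying that they were separately grown plants, so p-values measure the spread between these samples. Each gene is read by its own probes, so the cyclophilins are not ranked against one another by level.

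The genes for which the lines are named were read first. CYP20-3 was low on all 8 cyp20-3 arrays, 2CPA and 2CPB (the 2-Cys peroxiredoxin genes) differed from WT by -5.39 and -2.38 in 2cysprx in NL, and OASB by -4.51 in oastlB in NL. SERAT2;1 was not lower in the line labelled serat2;1, where it differed from WT by 0.02 ± 0.14 in NL (limma, adjusted p = 0.968) and by 0.47 ± 0.14 in HL (adjusted p = 0.101), and where the probes lie relative to the mutated site was not used here. One array, 2cysprx HL replicate 2, read 2CPA at 9.0, while the other 3 arrays of its group read 5.13 to 5.78. The same array also read 2CPB highest in its group, at 7.67 against 6.41 to 7.06. In the 2cysprx NL group, replicate 2 was the highest or the lowest of its 4 arrays for 9 of the 10 cyclophilins, against 59.4% of all probe sets. WT NL replicate 1 was extreme in its group for 9 of the 10 as well, against 56.9% of all probe sets. Of 6 markers of photosynthetic shoot tissue, 4 had mean levels of 11.3 to 13.8, RBCS3B stood at 5.64 and LHCA1 at 4.57, and the 5 root and 4 floral markers had mean levels of 1.65 to 3.34. These markers are read by different probes, so their levels do not measure the share of a tissue. Where a call on the 10 cyclophilins was lost or gained without one of the 3 arrays named here, the value without it stands beside the result. The 5 WT light response calls given below were kept without any 1 of their 8 arrays.

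The defining transcript of the module, CYP20-3, did not pass the test for a light response in any genotype. In WT it read 10.66, 10.51, 10.46 and 10.65 in NL and 10.64, 10.41, 10.46 and 10.53 in HL. These ranges overlap almost fully, and the light response was -0.06 ± 0.11 (adjusted p = 0.772). Its responses in the other genotypes ran from -0.10 in oastlB to 0.13 in serat2;1, with adjusted p between 0.533 and 0.998. The mean response over the 5 genotypes was -0.01 ± 0.05 (adjusted p = 0.953), with a 95% interval from -0.11 to 0.10.

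In the cyp20-3 line the CYP20-3 probe set read 6.73, 6.37, 6.23 and 6.55 in NL, and 6.73, 6.41, 6.77 and 5.97 in HL. All 8 values lay far below the 32 arrays of the other genotypes, which spanned 10.41 to 10.76. The differences from WT were -4.10 ± 0.11 in NL (adjusted p = 3.41e-24) and -4.04 ± 0.11 in HL (adjusted p = 5.68e-24), a 17.2-fold and a 16.4-fold lower signal. Whether the remaining signal comes from a residual transcript or from other transcripts that bind the probes was not tested. In the lines 2cysprx, oastlB and serat2;1, CYP20-3 differed from WT by -0.05 to 0.14 across both lights, and the lowest adjusted p among these 6 comparisons was 0.649.

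Of the cytosolic cyclophilins, ROC1 rose in high light in every genotype. The cytosolic genes encode similar proteins, the probe sequences were not used here, and how far a probe set also reads a related transcript was not tested. ROC1 is an abundant single-domain cyclophilin, known for a part in the light and brassinosteroid control of stem elongation. In WT it read 8.37, 8.59, 8.46 and 8.58 in NL and 9.13, 9.17, 9.07 and 8.91 in HL. The highest NL value thus stood below the lowest HL value, and the rise was 0.57 ± 0.09 (1.49-fold, adjusted p = 6.87e-06). In 2cysprx the NL arrays read 8.59, 8.31, 8.49 and 8.65 and the HL arrays 9.06, 9.07, 9.04 and 9.15, a rise of 0.57 ± 0.09 (adjusted p = 2.72e-05). Without 2cysprx NL replicate 2 that rise was 0.50 (adjusted p = 0.000288), and without 2cysprx HL replicate 2 it was 0.57 (adjusted p = 0.000142). It rose by 0.56 ± 0.09 in cyp20-3 (adjusted p = 1.15e-05), by 0.52 ± 0.09 in oastlB (adjusted p = 2.98e-05) and by 0.43 ± 0.09 in serat2;1 (adjusted p = 0.000657).

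Taken over the whole series, the 20 NL arrays had a lowest ROC1 value of 8.31, a median of 8.57 and a highest value of 8.70, and the 20 HL arrays had 8.88, 9.05 and 9.27. Every HL array therefore lay above every NL array, with a gap of 0.18, which held for 210 of all loci (0.755%). The mean response was 0.53 ± 0.04 (1.44-fold, adjusted p = 2.1e-13), and it lay between 0.52 and 0.54 when any 1 of the 40 arrays was left out. The 5 responses did not pass the test for a difference among genotypes (moderated F test, adjusted p = 0.887), and each mutant's response differed from that of WT by no more than 0.14, with 95% bounds from -0.39 to 0.25.

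**Figure D1:**
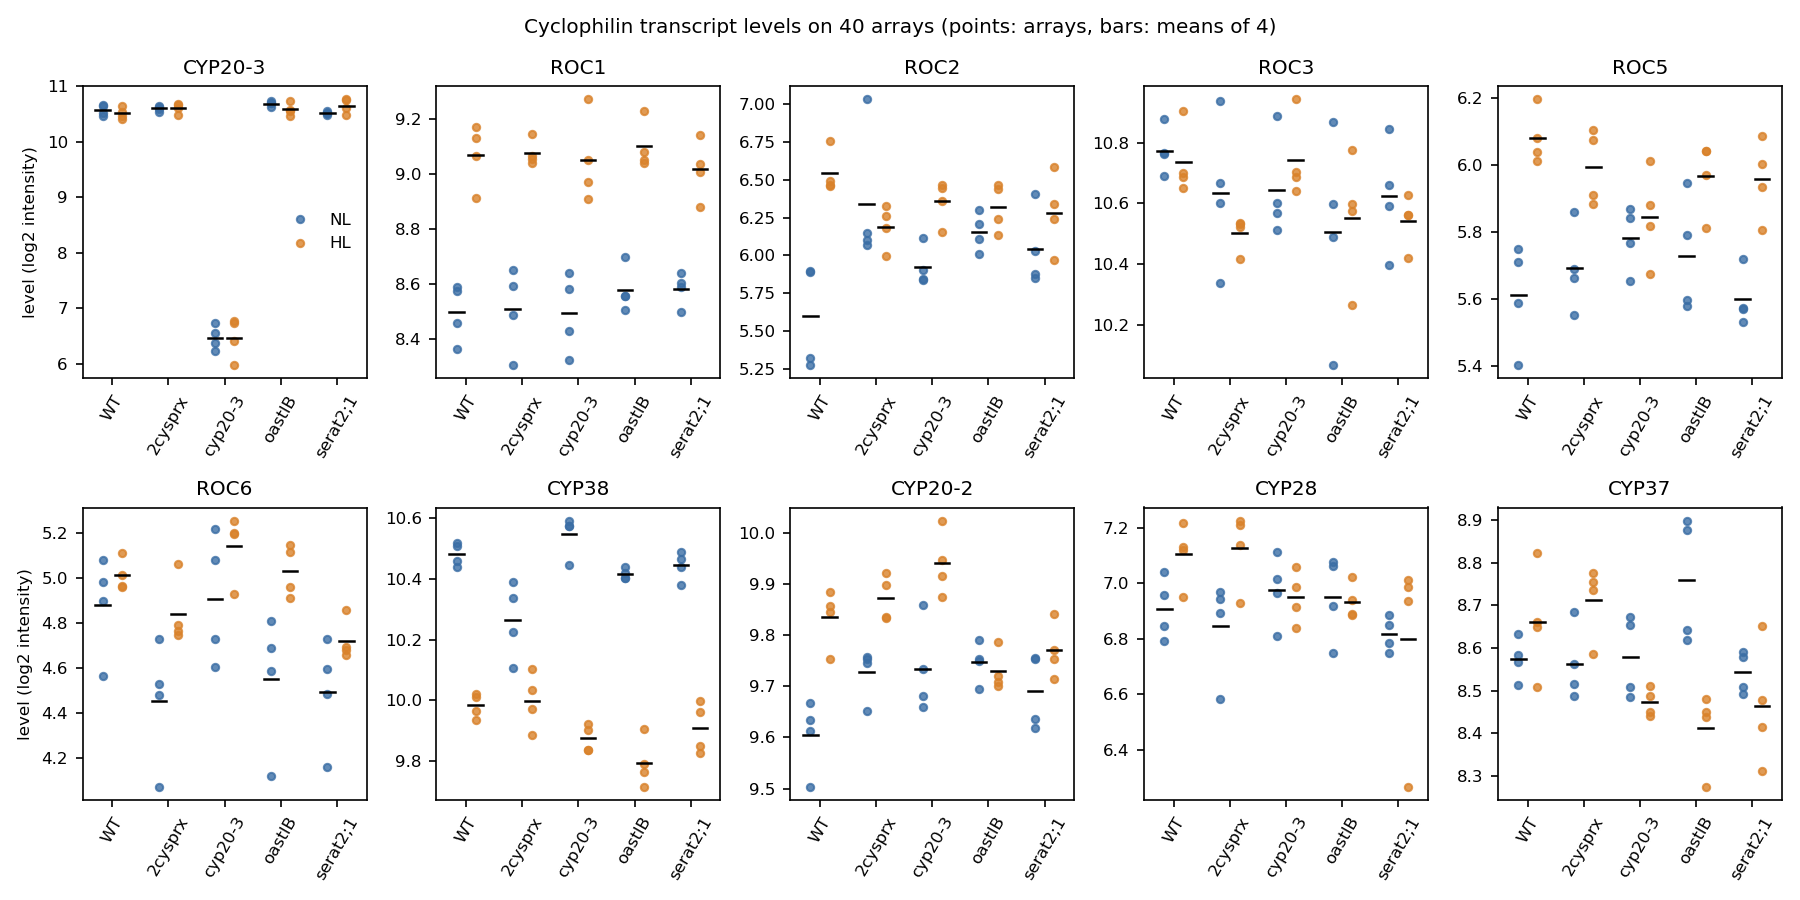
Log2 level (vertical axis) of each of the 10 cyclophilins on every array, by genotype (horizontal axis) and light; points are single arrays and bars are means of 4. ROC1 was higher and CYP38 lower on all 20 HL arrays than on all 20 NL arrays, and CYP20-3 was low on the 8 arrays of the cyp20-3 line.

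ROC5 rose in WT, 2cysprx and serat2;1. ROC5 is a further single-domain cyclophilin of the cytosol. WT arrays read 5.40, 5.59, 5.71 and 5.75 in NL and 6.08, 6.04, 6.20 and 6.01 in HL, without overlap, a rise of 0.47 ± 0.09 (adjusted p = 0.000308). The rise was 0.30 ± 0.09 in 2cysprx (adjusted p = 0.0372) and 0.36 ± 0.09 in serat2;1 (adjusted p = 0.00845). In cyp20-3 the NL values of 5.77, 5.65, 5.87 and 5.84 and the HL values of 5.82, 5.67, 6.01 and 5.88 covered nearly the same range, with a difference of 0.06 ± 0.09 (adjusted p = 0.726). The difference between the cyp20-3 and WT responses was -0.41 ± 0.13 and did not pass the test (adjusted p = 0.198), nor did the test over all genotypes (adjusted p = 0.239). In oastlB the response was 0.24 ± 0.09 (adjusted p = 0.0832), and it was called without oastlB NL replicate 2 (0.31, adjusted p = 0.0263) or without oastlB HL replicate 2 (0.29, adjusted p = 0.0468). Over all genotypes the mean response of ROC5 was 0.29 ± 0.04 (adjusted p = 8.34e-07). The 2cysprx call was lost without 2cysprx NL replicate 1, 2 or 4 (0.29, 0.26 and 0.30, adjusted p = 0.0833, 0.126 and 0.0688) and without 2cysprx HL replicate 2 or 4 (0.27 in either case, adjusted p = 0.119 and 0.108). With an intensity trend in the prior variance it lay just outside the threshold (adjusted p = 0.0505).

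ROC6 rose in oastlB only among the 5 single responses, although its mean response was a rise. The oastlB arrays read 4.12, 4.81, 4.69 and 4.59 in NL and 5.12, 4.91, 4.96 and 5.14 in HL, and the rise of 0.48 ± 0.14 was called (adjusted p = 0.0179). Without oastlB NL replicate 1, the lowest array, it was 0.34 (adjusted p = 0.13), and without oastlB HL replicate 4 it was 0.44 (adjusted p = 0.0588). Responses in the other genotypes ran from 0.13 in WT to 0.39 in 2cysprx, with a lowest adjusted p of 0.0974. Their mean over all 5 was 0.29 ± 0.07 (adjusted p = 0.000393), and the 5 did not pass the test for a difference (adjusted p = 0.701). The mean level of ROC6 was 4.80, and how far it stands above background was not tested.

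ROC3, a further cytosolic cyclophilin, showed no called light response. Its mean level was 10.63 over the 40 arrays, and its NL and HL values spanned 10.07 to 10.94 and 10.27 to 10.94. The 5 responses ran from -0.13 in 2cysprx to 0.10 in cyp20-3, and their mean was -0.02 ± 0.06 (adjusted p = 0.827, 95% interval -0.14 to 0.10).

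The light response of ROC2, a single-domain cyclophilin of the cytosol, differed among genotypes. In WT it read 5.27, 5.89, 5.90 and 5.32 in NL and 6.76, 6.47, 6.46 and 6.49 in HL. The groups did not overlap, and the rise of 0.95 ± 0.17 was a 1.93-fold change (adjusted p = 6.15e-05). It lay between 0.84 and 1.05 when any 1 of these 8 arrays was left out, with adjusted p of at most 0.000729. In 2cysprx the NL arrays read 6.10, 7.03, 6.15 and 6.07 and the HL arrays 6.26, 6.00, 6.32 and 6.18. The 2 groups overlapped, with the highest value on NL replicate 2 and the lowest on HL replicate 2, and the response was -0.15 ± 0.17 (adjusted p = 0.705). Without 2cysprx NL replicate 2 it was 0.09 (adjusted p = 0.838). The response was 0.43 ± 0.17 in cyp20-3 (adjusted p = 0.07), 0.16 ± 0.17 in oastlB (adjusted p = 0.614) and 0.24 ± 0.17 in serat2;1 (adjusted p = 0.413). In cyp20-3 it was called with array weights (0.41, limma, adjusted p = 0.039) or with only the 8 arrays compared (adjusted p = 0.0248). With only probe sets at or above the median level it was called as well (adjusted p = 0.0364), but not with an intensity trend, a replicate block or cyclic loess. The 5 responses differed among genotypes (moderated F test, adjusted p = 0.0206), a call lost without WT NL replicate 1 or 4 or WT HL replicate 1 (adjusted p = 0.0593, 0.0572 and 0.0547). The mean response was 0.33 ± 0.08 (limma, adjusted p = 0.000552). Without WT it was 0.17 and not called (adjusted p = 0.121), a mean that still includes 2cysprx NL replicate 2. With WT kept and that array left out, the mean was 0.375 (adjusted p = 8.54e-06).

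The group means of ROC2 were more spread in NL than in HL. In NL they were 5.60 ± 0.35 in WT, 5.92 ± 0.13 in cyp20-3, 6.04 ± 0.26 in serat2;1, 6.16 ± 0.13 in oastlB and 6.34 ± 0.47 in 2cysprx (SD, n = 4), and they differed among genotypes (moderated F test, adjusted p = 0.0264). Without WT NL replicate 1 or 4 this test was not passed (adjusted p = 0.119 and 0.114), nor with array weights (adjusted p = 0.0978) or with only the 20 NL arrays (adjusted p = 0.16). In HL they lay closer together, from 6.19 ± 0.14 in 2cysprx to 6.54 ± 0.14 in WT, and did not pass the test (adjusted p = 0.591). WT thus had the lowest mean in NL and the highest in HL. All 4 mutants are set against the same WT arrays, of which NL replicates 1 and 4 read lowest.

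Among the lumenal cyclophilins, CYP38 fell in high light in every genotype. In WT it read 10.52, 10.46, 10.51 and 10.44 in NL and 10.02, 10.01, 9.96 and 9.94 in HL, a fall of 0.50 (-0.50 ± 0.07, 1.41-fold, adjusted p = 5.27e-07). In 2cysprx it read 10.39, 10.11, 10.34 and 10.22 in NL and 9.97, 9.88, 10.03 and 10.10 in HL, a difference of -0.27 ± 0.07 (adjusted p = 0.00652), which was -0.32 without 2cysprx NL replicate 2 (adjusted p = 0.00154) and -0.23 without 2cysprx HL replicate 2 (adjusted p = 0.0381). In cyp20-3 the values were 10.59, 10.57, 10.57 and 10.45 in NL and 9.92, 9.83, 9.90 and 9.84 in HL, a difference of -0.67 ± 0.07 (adjusted p = 1.5e-09). The difference was -0.62 ± 0.07 in oastlB (adjusted p = 6.88e-09) and -0.54 ± 0.07 in serat2;1 (adjusted p = 4.78e-07). In bulk shoots, fewer cells of a type and less RNA per cell cannot be told apart for this or any other difference given here.

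Across the series, the lowest, median and highest CYP38 values were 10.11, 10.44 and 10.59 on the 20 NL arrays and 9.71, 9.91 and 10.10 on the 20 HL arrays. All HL arrays lay below all NL arrays, which held for 116 of all loci (0.417%), by a gap of 0.0039 between 2cysprx NL replicate 2 and 2cysprx HL replicate 4. The mean response was -0.52 ± 0.03, a 1.43-fold lower level (adjusted p = 1.99e-16), and leaving out any 1 array kept it between -0.53 and -0.51. The CYP38 responses differed among genotypes (moderated F test, adjusted p = 0.021), with the smallest fall in 2cysprx and the deepest in cyp20-3. This call was lost without 2cysprx NL replicate 2 or 2cysprx HL replicate 4 (adjusted p = 0.0598 and 0.0621). Set singly against WT, however, the response differed by 0.23 ± 0.09 in 2cysprx (adjusted p = 0.149) and by -0.17 ± 0.09 in cyp20-3 (adjusted p = 0.573), and none of the 4 mutants passed.

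CYP20-2 rose slightly in WT and cyp20-3. CYP20-2 is a lumenal subunit of the chloroplast NADH dehydrogenase-like complex, which takes part in cyclic electron flow. WT arrays read 9.50, 9.67, 9.63 and 9.61 in NL and 9.88, 9.85, 9.86 and 9.75 in HL, without overlap, and the rise was 0.23 ± 0.06 (1.17-fold, adjusted p = 0.00505). In cyp20-3 the NL arrays read 9.73, 9.68, 9.86 and 9.66 and the HL arrays 9.88, 10.02, 9.95 and 9.92, a rise of 0.21 ± 0.06 (adjusted p = 0.0135). That call was lost without cyp20-3 NL replicate 4 (0.18, adjusted p = 0.0528) or HL replicate 2 (0.18, adjusted p = 0.0612). The responses in 2cysprx, oastlB and serat2;1 were 0.15, -0.02 and 0.08 ± 0.06, and none was called. Over the 5 genotypes the mean rise was 0.13 ± 0.03 (adjusted p = 0.000203), and the test for a difference among genotypes was not passed (adjusted p = 0.207).

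CYP37, a further protein of the lumen, fell only in oastlB among the 5 single responses. The oastlB arrays read 8.62, 8.88, 8.64 and 8.90 in NL and 8.48, 8.45, 8.44 and 8.28 in HL, a difference of -0.35 ± 0.08 (adjusted p = 0.00167). In WT the arrays read 8.51, 8.57, 8.63 and 8.58 in NL and 8.82, 8.66, 8.51 and 8.65 in HL, with overlap and a difference of 0.09 ± 0.08 (adjusted p = 0.521). The responses in 2cysprx, cyp20-3 and serat2;1 were 0.15, -0.11 and -0.08 ± 0.08, none of them called. The responses differed among genotypes (moderated F test, adjusted p = 0.0196), a call lost without oastlB NL replicate 2 or 4 (adjusted p = 0.0518 and 0.0528), and the mean response was -0.06 ± 0.04 (adjusted p = 0.213). Leaving out the 2cysprx line, the mean of the other 4 was -0.11 (adjusted p = 0.0264).

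CYP28 showed no called light response in any single genotype. Its differences ran from -0.03 in cyp20-3 to 0.28 in 2cysprx, and the mean was 0.08 ± 0.05 (adjusted p = 0.236). In the serat2;1 HL group, replicate 4 read 6.27, while the other 3 arrays read 6.94 to 7.01. Without that array the mean response was 0.12 and passed the test (adjusted p = 0.0223).

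**Figure D2:**
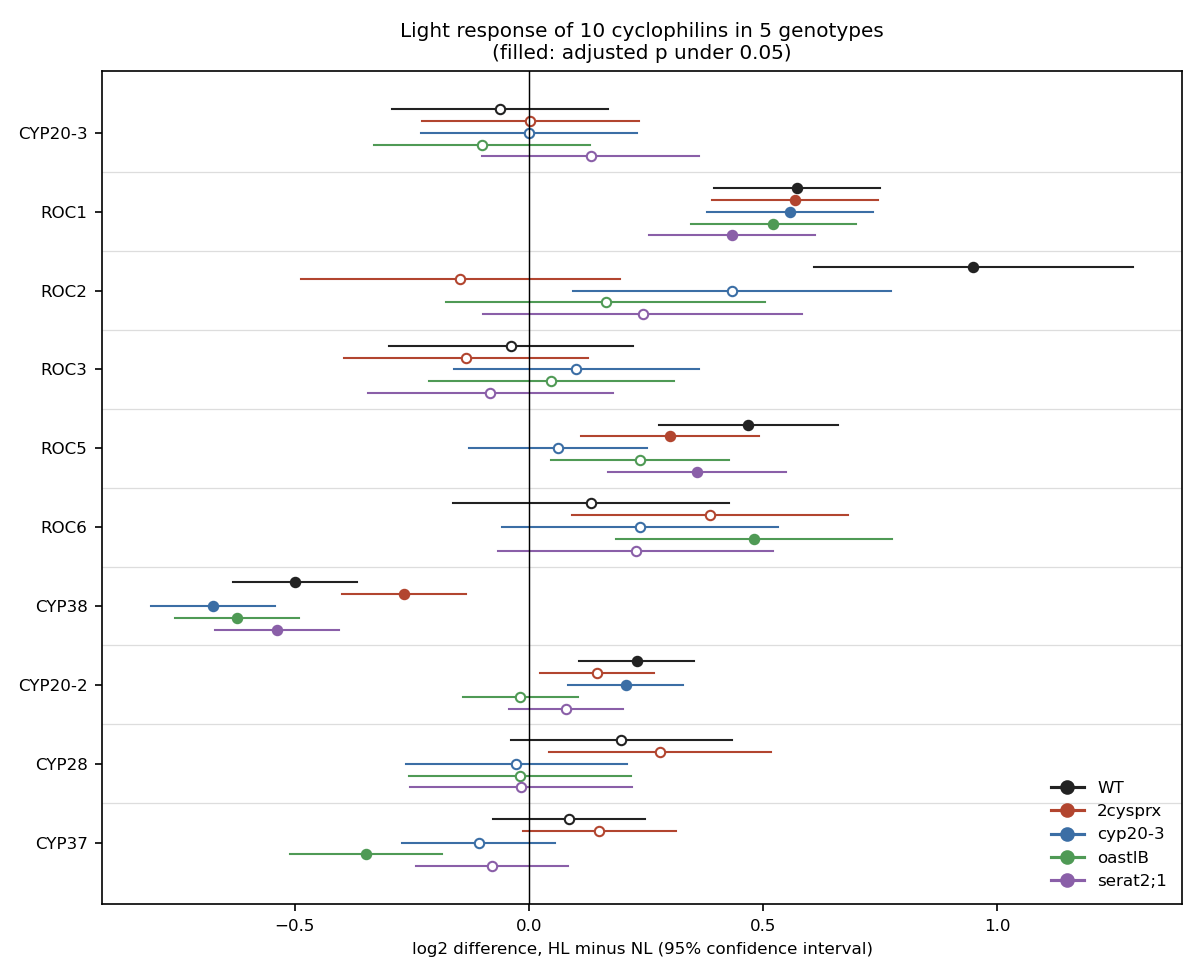
Light response (log2 difference, HL minus NL, horizontal axis) of the 10 cyclophilins in each of the 5 genotypes, with 95% confidence intervals; filled points were called. ROC1 lay to the right of 0 and CYP38 to the left of 0 in all 5 genotypes, while ROC2 ran from -0.15 in 2cysprx (0.09 without its NL replicate 2) to 0.95 in WT.

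Counted over genotypes, the 10 cyclophilins gave 12 called rises and 6 called falls in high light. In WT, 5 of 10 were called, where 19.8% of all probe sets were. The count was 3 of 10 in 2cysprx (all probe sets 8.55%), 3 in cyp20-3 (17.8%), 4 in oastlB (16.2%) and 3 in serat2;1 (11.4%). In the mean response over the 5 genotypes, 5 rose and 1 fell, where 35.4% of all probe sets were called. The 5 cytosolic cyclophilins had a median WT response of 0.47 and a median mean response of 0.29, the 4 lumenal ones 0.14 and 0.01, and all probe sets -0.02 and -0.02. In fits of only the 8 arrays compared, 7 of the 18 calls were lost, those of CYP20-2 in WT and cyp20-3 (adjusted p = 0.0983 and 0.142), ROC5 and CYP38 in 2cysprx (0.182 and 0.225), ROC6 and CYP37 in oastlB (0.0828 and 0.0839) and ROC5 in serat2;1 (0.0722), and that of ROC2 in cyp20-3 was gained (0.0248). All 10 single calls in the cytosolic genes were rises, and the lumenal genes gave 2 rises and 6 falls. ROC1 alone gave 5 of the cytosolic rises and CYP38 5 of the lumenal falls, 1 in each genotype. Of all probe sets, 2854 rose and 2665 fell in WT.

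Genes of the circadian clock moved between the NL and HL arrays as well. In WT the morning genes PRR9 and CCA1 were higher in HL by 2.50 and 1.03, and FKF1, which peaks later in the day, was lower (-1.41). LHY, also a morning gene, was not called in WT (-0.33 ± 0.15, limma, adjusted p = 0.109). It fell in the mean response (-0.19 ± 0.07, adjusted p = 0.0193). Over the 5 genotypes 2 of 7 clock genes rose and 5 fell (all probe sets 35.4% called). In NL, 6 of the 7 also differed between 2cysprx and WT, among them PRR9 (1.34), where 10.1% of all probe sets were called. The counts in NL were 5 of 7 in serat2;1 (all probe sets 2.42%), 3 in oastlB (3.42%) and 0 in cyp20-3 (0.0467%) by limma. In cyp20-3 the largest of the 7 differences was that of ELF4 (-0.30 ± 0.16, limma, adjusted p = 0.592). The hour of harvest was not used here, and the part of these shifts in the cyclophilin differences was not tested.

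Few cyclophilins other than CYP20-3 differed between a mutant and WT. In 2cysprx in NL, 2 of 10 were called (all probe sets 10.1%), ROC2 upwards and CYP38 downwards. ROC2 was higher by 0.74 ± 0.17 (1.67-fold, adjusted p = 0.00255), and every 2cysprx NL array read above every WT NL array. Without 2cysprx NL replicate 2, the array at 7.03, the difference was 0.51 (adjusted p = 0.0297), and in a fit of only the 8 arrays compared it was not called (adjusted p = 0.146).

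CYP38 was lower in 2cysprx in NL by a small amount (-0.22 ± 0.07, 1.16-fold, adjusted p = 0.0265), again without overlap. Its call was lost without 2cysprx NL replicate 2 or 4 (-0.16 and -0.20, adjusted p = 0.147 and 0.0638), without WT NL replicate 1 or 3 (-0.20 and -0.21, adjusted p = 0.0731 and 0.0611), with array weights (-0.19, adjusted p = 0.068) and with only the 8 arrays compared (adjusted p = 0.324). ROC6 stood at 4.07, 4.48, 4.73 and 4.53 in 2cysprx and at 4.56, 4.98, 4.90 and 5.08 in WT, and this difference of -0.43 ± 0.14 missed the threshold (adjusted p = 0.0544). It was called without 2cysprx NL replicate 3 (-0.52, adjusted p = 0.0271) or WT NL replicate 1 (-0.53, adjusted p = 0.0219). With a replicate block, array weights or cyclic loess it was called too (limma, adjusted p = 0.0329, 0.0488 and 0.0499). The same held with only probe sets at or above the median level (adjusted p = 0.024), but not with an intensity trend or only the groups compared.

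In the cyp20-3 line, CYP20-3 itself was the 1 cyclophilin called in NL, where 0.0467% of all probe sets were called, and the 1 called in HL, where 2.24% were. The other 9 cyclophilins differed from WT by -0.13 (ROC3) to 0.33 (ROC2) in NL and by -0.24 (ROC5) to 0.13 (ROC6) in HL. None was called by limma, with lowest adjusted p of 0.514 and 0.301. Of the 9, 1 and 2 had an unadjusted p under 0.05, a share that was not counted over all probe sets. The 95% intervals of these differences together ran from -0.39 to 0.67 in NL and from -0.53 to 0.43 in HL.

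In oastlB and serat2;1 no cyclophilin was called against WT by limma in either light. The shares of all probe sets called were 3.42% and 2.42% in NL and 0.855% and 0.956% in HL. At an unadjusted p under 0.05 the counts were 5 and 2 of 10 in NL and 2 and 2 in HL. The share of all probe sets at that unadjusted threshold was not counted, so these counts cannot be set against the shares called. ROC2 came nearest, at 0.56 ± 0.17 in oastlB in NL (adjusted p = 0.0551), where all 4 oastlB arrays, at 6.21, 6.01, 6.30 and 6.11, lay above all 4 WT arrays. It was called without WT NL replicate 2 (0.66, adjusted p = 0.0391) or WT NL replicate 3 (0.66, adjusted p = 0.0287). In 2cysprx in HL none of the 10 was called (all probe sets 2.21%). There, 1 had an unadjusted p under 0.05, again without a share of all probe sets to set it against.

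Over the 4 mutants and WT together, the test for any difference was passed by 3 of 10 cyclophilins in NL (CYP20-3, ROC2 and CYP38, all probe sets 7.82%) and by 2 in HL (CYP20-3 and CYP37, 8.72%). The 5 HL means of CYP37 ran from 8.41 ± 0.09 in oastlB to 8.71 ± 0.09 in 2cysprx (SD, n = 4, moderated F test, adjusted p = 0.0237), while no mutant was called against WT singly (lowest adjusted p = 0.128, in oastlB). The CYP37 call was lost without 2cysprx HL replicate 1, 3 or 4 (adjusted p = 0.0531, 0.0585 and 0.062) and with only the 20 HL arrays (adjusted p = 0.0891). That of CYP38 in NL (adjusted p = 0.0345) was lost without 2cysprx NL replicate 2 or 4 (adjusted p = 0.17 and 0.103), cyp20-3 NL replicate 1, 2 or 3 (adjusted p = 0.0713, 0.0661 and 0.0655) or WT NL replicate 1 (adjusted p = 0.0507), with array weights (adjusted p = 0.0672) and with only the 20 NL arrays (adjusted p = 0.168). ROC6 in NL stood just outside the threshold (adjusted p = 0.0562) and was called without any 1 of 7 NL arrays, with adjusted p from 0.026 to 0.0498. Those were 2cysprx replicate 3, cyp20-3 replicates 1 and 4, oastlB replicates 1 and 2, serat2;1 replicate 3 and WT replicate 1 (adjusted p = 0.0276 without this one).

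**Figure D3:**
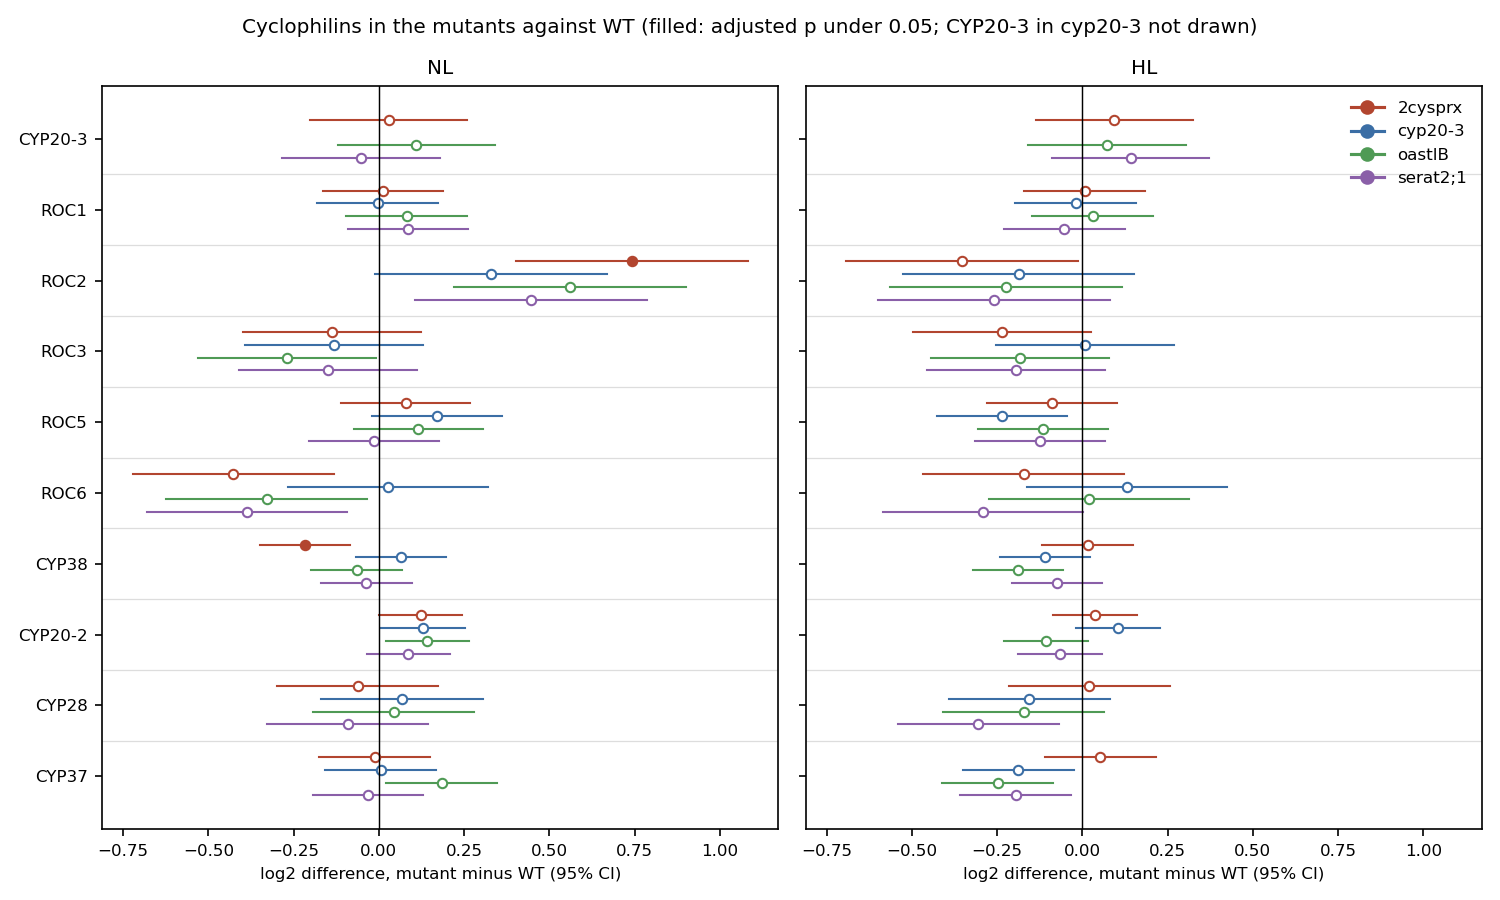
Difference of each mutant from WT (log2, horizontal axis, with 95% confidence interval) for the 10 cyclophilins in NL (left) and HL (right); filled points were called, and CYP20-3 in its own mutant, near -4, is not drawn. ROC2 (0.74) and CYP38 (-0.22) in 2cysprx in NL are the 2 filled points.

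The light response differed between genotypes for 3 of the 10 (ROC2, CYP38 and CYP37), where 8.14% of all probe sets passed that test. Taken mutant by mutant, ROC2 was the 1 cyclophilin whose response in 2cysprx differed from that in WT, by -1.09 ± 0.24 (adjusted p = 0.00294, all probe sets 6.09%). Without 2cysprx NL replicate 2 the difference was -0.86 (adjusted p = 0.00855), and without 2cysprx HL replicate 2, the array with the high 2CPA reading, it was -1.03 (adjusted p = 0.00868). Leaving out any 1 of the 16 arrays of these groups kept the call, with adjusted p of at most 0.0105. Its differences in the other lines pointed the same way but missed the threshold, at -0.52 in cyp20-3 (adjusted p = 0.473), -0.78 in oastlB (adjusted p = 0.0636) and -0.71 in serat2;1 (adjusted p = 0.108), and all 4 share the WT response of 0.95. The oastlB value was called without WT NL replicate 2 or 3 (-0.88 and -0.89, adjusted p = 0.0462 and 0.0354).

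In oastlB, CYP37 was the 1 cyclophilin called, with a response 0.43 below that of WT (-0.43 ± 0.11, adjusted p = 0.031, all probe sets 2.8%). In a fit of only the 16 arrays compared it was not called (adjusted p = 0.14). It was also lost without oastlB NL replicate 2 or 4 (both -0.39, adjusted p = 0.0747 and 0.0669), oastlB HL replicate 4 (-0.39, adjusted p = 0.0753), WT NL replicate 1 (-0.41, adjusted p = 0.0686) or WT HL replicate 1, 2 or 4 (-0.38, -0.43 and -0.44, adjusted p = 0.0748, 0.0514 and 0.0533). No cyclophilin had a called difference in response in cyp20-3 (all probe sets 0.855%) or serat2;1 (2.29%). In these lines 2 and 1 of the 10 had an unadjusted p under 0.05, a share that was not counted over all probe sets.

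The wider cyclophilin family responded in both directions. Of 19 further loci assigned to the family from general knowledge, 6 of which the reference gene table names as cyclophilins, 6 rose and 6 fell in the mean light response and 7 were not called, where 35.4% of all probe sets were called. Their median was -0.03, close to that of all probe sets. The largest rises were those of SQN, the cyclophilin 40 that works as an HSP90 co-chaperone (0.41 ± 0.08, adjusted p = 8.02e-05), of ROC7, a cyclophilin of the secretory pathway (0.41 ± 0.04, adjusted p = 3.33e-11), and of AT2G47320 (0.26 ± 0.04). AT1G26940 (-0.36 ± 0.04, adjusted p = 1.54e-08), AT3G66654 (-0.29 ± 0.05) and PUB49 (-0.18 ± 0.04), a U-box protein, showed the largest falls. ROC7 was called upwards and AT1G26940 downwards in each of the 5 genotypes. Against WT, 1 of these 19 was called in a mutant, AT1G74070 in 2cysprx in HL (0.30 ± 0.08, adjusted p = 0.0426, all probe sets 2.21%), a gene named after its value was seen. Without 2cysprx HL replicate 2 its difference was 0.37 (adjusted p = 0.0151).

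FKBPs are a second family of prolyl isomerases, unrelated in sequence, of which plants hold many in the thylakoid lumen. Of 11 loci listed as lumenal FKBPs from general knowledge, 2 of which the reference gene table names as such, 2 rose, 5 fell and 4 were not called in the mean light response (all probe sets 35.4% called), with a median of -0.06. AT4G26555 (-0.46 ± 0.05, adjusted p = 7.84e-10), AT2G43560 (-0.28 ± 0.04) and AT1G20810 (-0.27 ± 0.06) fell most, and AT1G18170 (0.17 ± 0.04) and AT5G13410 (0.10 ± 0.04) were the rises. In 2cysprx in HL, 3 of the 11 were above WT (all probe sets 2.21% called), AT4G26555 by 0.51 ± 0.11 (adjusted p = 0.00531), FKBP13 by 0.49 ± 0.10 (adjusted p = 0.00281) and AT3G60370 by 0.48 ± 0.13 (adjusted p = 0.0328), the last pair named after their values were seen. Without 2cysprx HL replicate 2 these differences were 0.46, 0.54 and 0.50 (adjusted p = 0.0259, 0.00256 and 0.0451). None of the 4 listed lumenal cyclophilins was called in that comparison. Of the further cyclophilins AT1G74070 was called there (0.30, limma, adjusted p = 0.0426), and the compartments of the further cyclophilins were not used here. The difference between the families was not tested.

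**Figure D4:**
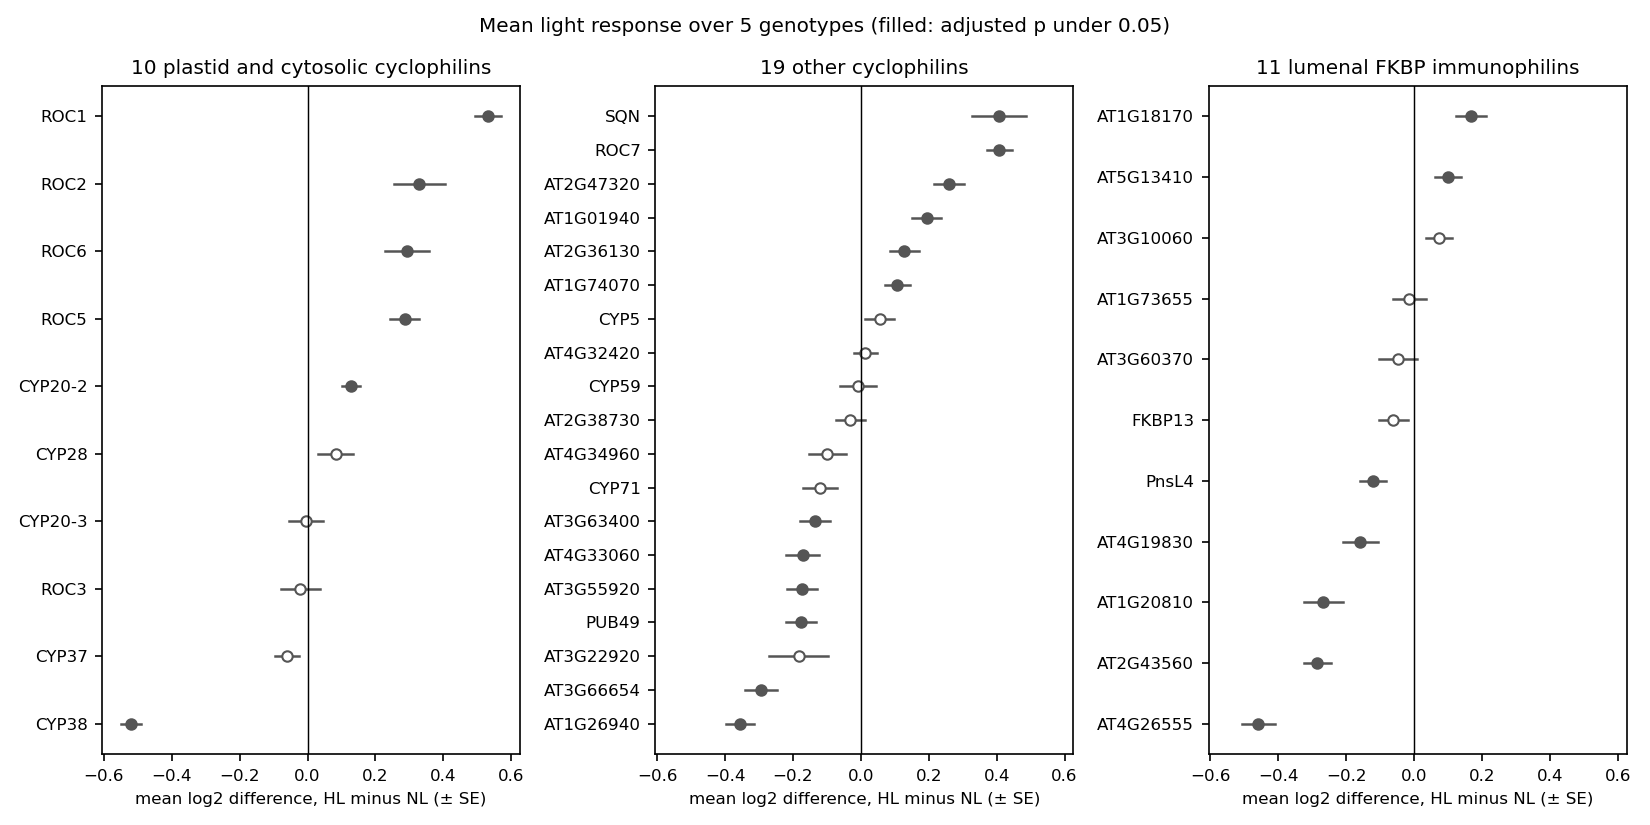
Mean light response over the 5 genotypes (log2 difference, HL minus NL, horizontal axis, ± SE) of the 10 cyclophilins, 19 further cyclophilins and 11 lumenal FKBPs; filled points were called. Rises and falls occur in all 3 panels, with ROC1 (0.53) highest and CYP38 (-0.52) lowest in the first.

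Of the partner genes, OASB had a mean light response of -0.22 ± 0.06 (adjusted p = 0.00478). That mean includes its own mutant oastlB, the 1 genotype in which OASB was called singly (-0.43 ± 0.14, adjusted p = 0.0264), and over the other 4 genotypes it was -0.16 and not called (adjusted p = 0.0657). In oastlB, HL replicate 4 read OASB at 3.44, against 4.34, 4.67 and 4.57 on the other HL arrays and 4.61 to 4.79 in NL. SERAT2;1 rose in the line labelled serat2;1 (0.43 ± 0.14, adjusted p = 0.0383), and its mean response was 0.08 ± 0.06 (adjusted p = 0.334). In the cyp20-3 line OASB differed from WT by 0.04 ± 0.14 in NL and -0.12 ± 0.14 in HL, and SERAT2;1 by -0.11 ± 0.14 and -0.13 ± 0.14, none of them called.

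Genes whose levels ran most like those of each cyclophilin were ranked by Pearson's r over the 40 arrays, which share the light groups, so that any 2 genes with a strong light response correlate. For ROC1 these were HB-2, a shade-induced homeobox gene (r = 0.943), LEA3 (r = 0.93) and LTP3, a lipid transfer protein gene (r = 0.925). CYP38 ran with ACX4, a peroxisomal acyl-CoA oxidase gene (r = 0.956), AGY1, which encodes the SecA translocase of the chloroplast (r = 0.956), and ALB1, a magnesium chelatase subunit gene (r = 0.952). The nearest to ROC2 was AT3G49910 (r = 0.849), and the nearest to ROC5 AT2G21210 (r = 0.808). Likeness was looser for CYP37, whose nearest genes were AT3G09580 (r = 0.652), the lumenal immunophilin gene FKBP13 (r = 0.636) and the PsbP-like gene PPL1 (r = 0.636). CYP20-3 was compared over the 32 arrays outside its mutant, and AT2G02440 came nearest (r = 0.779).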

How the data were processed

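Biotin-labelled cRNA of shoots was read on Affymetrix arrays with 1 channel each, as the labels' protocols state. The authors deposited log2 values in 1 table, and the submitters' processing notes name RMA. RMA corrects background, normalises arrays by quantiles and summarises the probes of a set. The RMA version, the type of array and the genome build were not given in any source used, so no coordinates or sequences are printed. Each of the 40 columns matched 1 sample by its labels. The 27826 probe sets are named by locus, and a reference table of gene names held 27241 of them. Without detection calls the signal over background of a probe set is unknown, and precision is set by the number of arrays.

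A single linear model of the 40 arrays, with 1 term for each group, was fitted in limma 3.58.1 (R 4.3.3), with 30 residual and 3.9 prior degrees of freedom. From it came 18 contrasts and 3 moderated F tests, all adjusted by Benjamini-Hochberg over all probe sets. The fit was checked on simulated data. The mutants share the WT arrays, so no overlap between their comparisons is given.

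The cyclophilins, the lists and the tests were chosen with earlier results of these data known. Named are all 10 cyclophilins, the 4 partner genes, the 3 largest called rises and falls of each further list in the mean light response, list genes called at 0.5 or more from WT, and a selection of the 3 most alike genes per cyclophilin. The alternatives were an intensity trend, a replicate block, only the groups compared, only probe sets at or above the median level, cyclic loess, array weights and leaving out each array. A mean light response without each genotype, and the further family members without 2cysprx HL replicate 2, were chosen after seeing the data. Taken over all genes, same-numbered arrays of 2 groups did not deviate together (correlations of deviations from group means -0.112 to 0.116 over 52 pairs). The samples were not treated as paired in the main fit. These correlations do not test single genes.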

Additional observations from a re-analysis of the deposited data

Results flagged for a closer look

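Of 100 combinations of a cyclophilin and a group of 4 arrays, 7 held an array that stood apart by Dixon's test at the 95% level, where chance gives about 5%. ROC2 read 6.759 on WT HL replicate 1, above the next array at 6.49. On 2cysprx NL replicate 2, ROC2 read 7.033, above the next at 6.148, and CYP20-2 read 9.652, below the next at 9.745. ROC3 read 10.42 on 2cysprx HL replicate 4, below 10.52, and ROC6 read 5.061 on 2cysprx HL replicate 1, above 4.79. CYP38 read 10.45 on cyp20-3 NL replicate 4, below 10.57. CYP28 read 6.267 on serat2;1 HL replicate 4, below 6.936.

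In 2 cases a mutant's light response differed from that of WT by the test of the difference itself. The ROC2 response in 2cysprx was lower than in WT by a difference of -1.095 (limma, adjusted p = 0.00294). The CYP37 response in oastlB differed from that in WT by -0.4331 (adjusted p = 0.031).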

How the results depend on the processing

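No value of a cyclophilin that was called changed its sign under any alternative. With an intensity trend in the prior variance, the number of cyclophilins called was 1 in place of 0 for oastlB against WT in NL, 3 in place of 1 for the oastlB difference in light response, and 4 in place of 2 in the test among genotypes in HL; the ROC5 light response in 2cysprx was lost (adjusted p = 0.0505). With only the brighter probe sets the first pair of counts was again 1 and 3, and over single genes and contrasts 7 calls were gained and 0 lost. Array weights gave 1 in place of 3 in the test among genotypes in NL. They brought in the ROC2 light response in cyp20-3 and ROC6 in 2cysprx against WT in NL (limma, adjusted p = 0.039 and 0.0488). CYP38 in the latter comparison was lost (adjusted p = 0.068). A fit of only the groups compared gave 1 in place of 3 for the 2cysprx light response, 2 in place of 4 for the oastlB light response, 0 in place of 2 for 2cysprx against WT in NL, 0 in place of 1 for the oastlB difference in response, and 1 in place of 3 in the test among genotypes in NL. The fit of only the groups compared also lost the light responses of CYP20-2 in WT and ROC5 in serat2;1 (limma, adjusted p = 0.0983 and 0.0722). In cyp20-3 it lost that of CYP20-2 and gained that of ROC2 (adjusted p = 0.142 and 0.0248). That fit has fewer arrays, and the cause of the other changes was not tested. Leaving out 1 array at a time gave counts of 1 to 3 for 2cysprx against WT in NL, 0 to 1 for oastlB against WT in NL, 0 to 2 for the oastlB difference in response, 1 to 2 in the test among genotypes in HL, 2 to 4 in that in NL and 2 to 3 in that of the light responses. It also gave 2 to 3 for the light responses of 2cysprx and cyp20-3, 3 to 5 for oastlB and 6 to 7 for the mean response, and the main count for the other comparisons. Over single genes and contrasts, 2051 such refits kept the side of the threshold, 9 gained a call and 20 lost one.

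With the replicate number as a block, 179 values of single genes kept their side of the threshold, and 1 moved across it, as ROC6 in 2cysprx against WT in NL was called (-0.43, adjusted p = 0.0329). ROC6 also passed the test among genotypes in NL under the block (adjusted p = 0.0299). By their labels, the samples of a block share only a number. With 4 arrays a group and no detection calls, small changes in dim probe sets may go undetected.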

Other observations

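In NL, replicate 1 had the lowest ROC6 value of its group in 5 of the 5 genotypes, at 4.07 (2cysprx), 4.12 (oastlB), 4.16 (serat2;1), 4.56 (WT) and 4.60 (cyp20-3). In HL this was so in 1 of the 5. How many of all probe sets share this pattern was not counted, so it cannot be told apart from chance. The labels give no meaning to the replicate number beyond its place in the group.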
